A study of Mus musculus with 12 samples.

Results

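The neutrophil-attracting CXC chemokines and their receptors were followed in the colon of mice with and without dextran sulfate sodium (DSS) colitis. The members were the 7 genes of the deposited table, of 54532 in all, whose gene name was Cxcl1, Cxcl2, Cxcl3, Cxcl5, Ppbp, Cxcr1 or Cxcr2, which gives 5 ligands and 2 receptors. The study deleted Tmem173, the gene of the DNA-sensing adaptor STING, in myeloid cells of adult mice and sequenced polyA RNA of the whole colon. Each of 4 groups held 3 libraries. Tmem173fl/fl mice carried floxed Tmem173 alleles and no Cre, whereas Tmem173iΔmye mice carried the same alleles and Lyz2-Creert2, a tamoxifen-inducible Cre recombinase under the control of the Lyz2 gene, which is active in macrophages, monocytes and neutrophils. All 4 groups were on the C57BL/6N background and received 5 tamoxifen injections, the Tmem173fl/fl controls included. The colitic groups drank DSS at 2.5% to 3% for 7 days and then water for 1 day, and the untreated groups drank water. Mice were 6 to 8 weeks old in the acute colitis protocol.

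CXC chemokines of this family carry a Glu-Leu-Arg motif ahead of the first cysteine pair and act on CXCR2 and, for some ligands, CXCR1, which are G protein-coupled receptors that direct neutrophils from the blood into tissue. In injured mucosa the ligands are made by epithelial cells, fibroblasts, endothelial cells and myeloid cells under the control of NF-κB and of IL-1 and IL-17, while CXCR2 is carried mainly by neutrophils. PPBP differs in that its precursor is stored in platelet granules and is cut to an active chemokine after release. In RNA from whole colon, fewer cells of a type and less RNA per cell cannot be told apart.

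The 5 ligand genes lie on the plus strand of chromosome 5 within 146.6 kb, in the order Cxcl5, Ppbp, Cxcl3, Cxcl1 and Cxcl2, on GRCm38. Cxcl5 (ENSMUSG00000029371) lies at chr5:90759360-90761624, Ppbp (ENSMUSG00000029372) at chr5:90768518-90770063 and Cxcl3 (ENSMUSG00000029379) at chr5:90786103-90789600. Cxcl1 (ENSMUSG00000029380) lies at chr5:90891241-90893115 and Cxcl2 (ENSMUSG00000058427) at chr5:90903871-90905938, 10.8 kb further on. The platelet chemokine gene Pf4 lies between Ppbp and Cxcl3, and Cxcl15, a CXC chemokine gene known from lung epithelium, lies between Cxcl3 and Cxcl1. Both receptor genes lie on chromosome 1, with Cxcr2 (ENSMUSG00000026180) at chr1:74153989-74161246 on the plus strand and Cxcr1 (ENSMUSG00000048480) at chr1:74191785-74194631 on the minus strand, 30.5 kb apart. All 7 genes are protein coding, and none overlaps another annotated gene. The principal transcripts of Cxcl2 and Cxcl3 share a run of 110 bases, and 5.75% of the 50-base words of Cxcl2 occur in Cxcl3, so some reads could be assigned to either gene, whereas no other pair of members shares a 50-base word.

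Promoters are shown because those of Cxcl1, Cxcl2 and Cxcl3 share a short run of bases in front of their starts, beside that of Ppbp, a ligand of the same cluster that was high and low in the same groups as these 3. The sequences are the plus strand of RefSeq on GRCm38.p6, from 120 to 24 bases before the RefSeq start. Capitals mark GGGAATTTCC, a form of the κB motif that NF-κB binds, and the run ATAAAA, which resembles the TATA box. In Ppbp the first run in capitals is ATAAAA read on the minus strand. Cxcl5 is named only. The windows are chr5:90891125-90891221 for Cxcl1, chr5:90903779-90903875 for Cxcl2, chr5:90785981-90786077 for Cxcl3 and chr5:90768398-90768494 for Ppbp.
Cxcl1: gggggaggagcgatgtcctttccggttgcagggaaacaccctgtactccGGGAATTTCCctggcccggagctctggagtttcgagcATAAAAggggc
Cxcl2: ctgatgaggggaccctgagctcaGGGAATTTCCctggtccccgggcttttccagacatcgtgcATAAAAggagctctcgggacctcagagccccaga
Cxcl3: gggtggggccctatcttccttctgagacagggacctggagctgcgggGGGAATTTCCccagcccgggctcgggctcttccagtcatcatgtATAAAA
Ppbp: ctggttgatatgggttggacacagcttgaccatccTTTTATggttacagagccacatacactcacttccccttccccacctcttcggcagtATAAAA

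The run GGGAATTTCC began 71 bases before the RefSeq start in Cxcl1, 97 in Cxcl2 and 73 in Cxcl3. Measured from the gene starts of the deposited table, it began 67, 69 and 75 bases before the start and was followed by ATAAAA at 30, 29 and 31 bases. Promoters of 300 bases (250 before and 50 after the start) were searched on both strands for the runs in capitals, for the C/EBP motif TTGCNNAA, for the AP-1 motif TGANTCA and for the degenerate κB consensus, which GGGAATTTCC also matches. Of 32851 mouse promoters, 29 (0.0883%) held GGGAATTTCC, 18.5% held ATAAAA, 10.8% held TTGCNNAA, 7.81% held TGANTCA and 4.51% held the κB consensus. Among the 6 members with a promoter entry, GGGAATTTCC and the κB consensus were in the same 3, ATAAAA was in those 3, Ppbp and Cxcr1, TGANTCA was in Ppbp, and TTGCNNAA was in 0. The longest run shared by any pair of the windows of these 6 was the 14 bases common to Cxcl1 and Cxcl2, which contain the κB run. A match is a description of letters and does not show that a factor binds there.

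The libraries held from 13823237 to 18718915 counts. Levels are given as CPM, the counts of a gene divided by the library's total and scaled by TMM factors, and a gene with 0 to 3 counts in a library is said to be at the floor there. The targeted gene was checked first, and Tmem173 stood at 42.4, 44.0 and 37.7 CPM in the colitic Tmem173fl/fl libraries and at 47.8, 23.8 and 31.1 CPM in the colitic Tmem173iΔmye libraries (log2 fold change -0.28, SE 0.26, edgeR adjusted p = 0.602), so the counts per gene did not show its loss, and single exons were not examined. Lyz2, whose gene drives the Cre, differed by -0.54 between the same groups (edgeR adjusted p = 0.266). In all, 3 libraries had the female pattern of high Xist and low Ddx3y, namely replicate 3 in each untreated group and, among the colitic Tmem173iΔmye libraries, replicate 5. That replicate 5 also stood apart from the other 11 libraries on the second principal component (9.77% of the variance), at 78.6 against -20.5 to 15.7. On the first component (56.0% of the variance) it lay at -22.9, between the untreated libraries (-61.5 to -41.8) and replicates 1 and 2 of its own group (53.4 and 11.6), while the colitic Tmem173fl/fl libraries lay at 81.1 to 102. Results that rest on replicate 5 are given without it below. The labels do not say whether the libraries of a group came from separate mice, so p-values measure the spread between these libraries only.

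The members were at or near the floor in the untreated colon. Summed over the 5 ligands, the untreated Tmem173fl/fl libraries held 16, 11 and 20 counts and the untreated Tmem173iΔmye libraries held 37, 21 and 30 counts. Cxcl3, Ppbp and Cxcr2 were at the floor in all 6 untreated libraries. Only Cxcl1 and Cxcl5 exceeded 10 counts in any untreated library, with at most 12 and 22 counts.

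**Figure D1:**
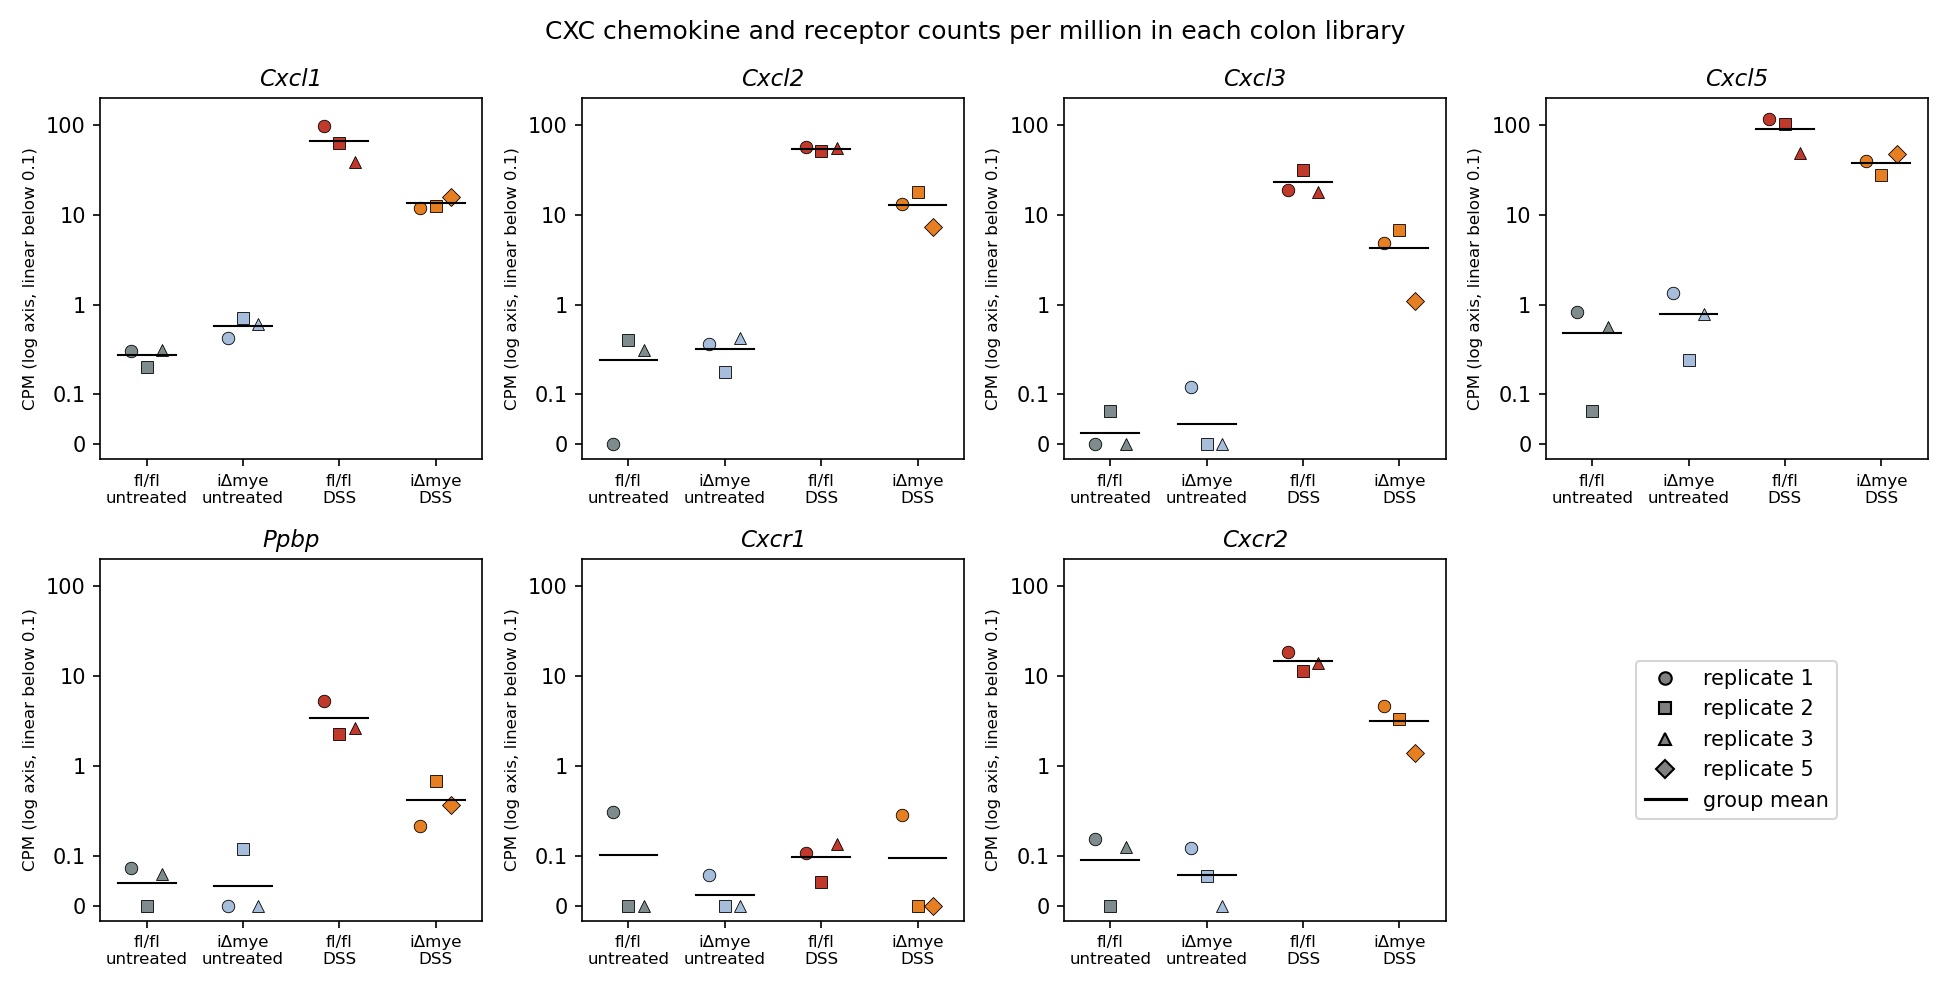
CPM (log axis, linear below 0.1) of each of the 7 members in every library, with 1 panel per gene, symbols for replicate numbers and bars for group means. In the panels of Cxcl1, Cxcl2, Cxcl3, Cxcl5, Ppbp and Cxcr2 the colitic Tmem173fl/fl libraries are highest, the colitic Tmem173iΔmye libraries follow without overlap and the untreated groups are lowest, whereas Cxcr1 stays at 4 counts or fewer throughout.

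The first comparison asks what colitis does to these genes in Tmem173fl/fl mice. With DSS in Tmem173fl/fl mice, all 6 members tested rose, by 6.06 to 9.63 on the log2 scale. In the same fit 14.9% of the 24102 genes tested were called higher. To be called, a gene had to change by 1 or more on the log2 scale with a p below 0.05 in edgeR after Benjamini-Hochberg adjustment. Every colitic library was above every untreated library for these 6 genes, as was the case for 23.9% of all genes tested.

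Cxcl1 and Cxcl2 are the classical ligands of CXCR2 in the mouse, made by stromal, epithelial and myeloid cells. Cxcl1 stood at 0.303, 0.203 and 0.313 CPM in the untreated Tmem173fl/fl libraries and at 97.3, 63.2 and 38.9 CPM in the colitic ones. The colitic libraries were all far above the untreated ones and ran from 38.9 to 97.3 CPM among themselves. The rise of Cxcl1 was 7.96 on the log2 scale (SE 0.44, edgeR adjusted p = 1.69e-06). Cxcl2 stood at 0, 0.406 and 0.313 CPM untreated and at 56.9, 52.0 and 55.2 CPM with DSS. Its colitic libraries were the most alike of all members, with a mean of 54.7 ± 2.47 CPM (SD, n = 3). The rise of Cxcl2 was 7.80 (SE 0.40, edgeR adjusted p = 1.22e-06).

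Cxcl3, a close relative of Cxcl1 and Cxcl2, was counted once in the 3 untreated Tmem173fl/fl libraries together and reached 19.1, 31.9 and 18.0 CPM with DSS. From the summed counts, 1 against 1290, Cxcl3 was 1045-fold higher per library size, with an exact 95% interval from 187 to 41290 that covers counting error only. The edgeR log2 fold change was 9.63 (SE 0.55, edgeR adjusted p = 2.09e-06), the fifth highest of 24102 genes. All SE values are derived from the edgeR F statistic, and this one understates the uncertainty that the counting interval shows. Cxcl5, which is known chiefly as an epithelial product, rose from 0.833, 0.0677 and 0.564 CPM to 118, 102 and 48.7 CPM. The lowest colitic library was thus far above the highest untreated one, and the log2 fold change of Cxcl5 was 7.59 (SE 0.53, edgeR adjusted p = 5.8e-06).

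Ppbp rested on the fewest reads of the members called. Its counts were 1, 0 and 1 in the untreated Tmem173fl/fl libraries and 97, 48 and 39 in the colitic ones, which gave 5.26, 2.27 and 2.66 CPM. The summed counts rose 74.5-fold (exact 95% interval 20.3 to 620, counting error only), and the edgeR log2 fold change was 6.06 (SE 0.69, edgeR adjusted p = 0.000113). Cxcr2, the receptor of all 5 ligands, had counts of 2, 0 and 2 untreated and of 346, 238 and 203 with DSS. The summed counts of Cxcr2 rose 159-fold (exact 95% interval 62.0 to 586, counting error only), and the edgeR log2 fold change was 7.27 (SE 0.49, edgeR adjusted p = 5e-06).

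Cxcr1, the second receptor, did not pass the filter on low values (0.1 FPKM or more in 3 or more libraries) and was not tested. Its counts were 4, 0 and 0 in untreated Tmem173fl/fl, 1, 0 and 0 in untreated Tmem173iΔmye, 2, 1 and 2 in colitic Tmem173fl/fl and 4, 0 and 0 in colitic Tmem173iΔmye libraries. A difference in Cxcr1 was not detectable at this depth.

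The second comparison asks the same of mice with the myeloid deletion. With DSS in Tmem173iΔmye mice, 5 of the 6 members tested were called higher, against 1.48% of all genes tested. All 6 members had every colitic library above every untreated one, as 12.1% of all genes did. Cxcl1 went from 0.425, 0.719 and 0.601 CPM to 12.04, 12.4 and 15.8 CPM, a log2 fold change of 4.51 (SE 0.36, edgeR adjusted p = 0.000619). The 3 colitic libraries of Cxcl1 were close together, with an SD of 2.05 CPM.

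Cxcl5 went from 1.34, 0.240 and 0.782 CPM to 39.7, 27.8 and 47.1 CPM, a log2 fold change of 5.59 (SE 0.49, edgeR adjusted p = 0.000769). Cxcl2 went from 0.364, 0.180 and 0.421 CPM to 13.3, 17.7 and 7.35 CPM, a log2 fold change of 5.28 (SE 0.49, edgeR adjusted p = 0.000769). Replicate 5 was the highest of the 3 colitic libraries for Cxcl1 and Cxcl5 and the lowest for Cxcl2, Cxcl3 and Cxcr2.

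Cxcl3 reached 68, 110 and 18 counts from 2, 0 and 0, a ratio of 105 (exact 95% interval 28.6 to 872, counting error only) with an edgeR log2 fold change of 6.47 (SE 1.01, edgeR adjusted p = 0.0128). Cxcr2 reached 65, 54 and 23 counts from 2, 1 and 0, a ratio of 50.6 (exact 95% interval 17.0 to 248, counting error only) with an edgeR log2 fold change of 5.52 (SE 0.80, edgeR adjusted p = 0.00895). Leaving out any 1 of the 3 untreated Tmem173iΔmye libraries ended the calls of Cxcl3 and Cxcr2, with adjusted p up to 0.112 for Cxcl3 and 0.0960 for Cxcr2 in edgeR. Their log2 fold changes there were 5.96 to 9.09 for Cxcl3 and 5.02 to 6.37 for Cxcr2, and 0.212%, 0.166% and 0.178% of all genes were called higher without replicates 1, 2 and 3. Leaving out replicate 5 of the colitic group changed no call of a member, while the share of all genes called higher went from 1.48% to 3.95%. Ppbp had 3, 11 and 6 counts with DSS and 0, 2 and 0 without (log2 fold change 3.17, SE 1.18, edgeR adjusted p = 0.221).

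Without DSS the genotypes were compared to see whether the deletion alone moves these genes. In edgeR 0 of 24102 genes were called (0.0%), 720 had an unadjusted p under 0.05, and DESeq2 called 3. No member was called, with edgeR adjusted p = 1 for each. Cxcl1 was the only member whose groups did not overlap, as was the case upwards for 3.66% of all genes, with 4, 3 and 5 counts in Tmem173fl/fl and 7, 12 and 10 counts in Tmem173iΔmye libraries. The log2 fold change of Cxcl1 was 1.08 (SE 0.65), and the ratio of summed counts was 2.13 with an exact 95% interval of 1.06 to 4.59 for counting error only. The other members had log2 fold changes from -0.54 (Cxcr2, SE 1.38) to 0.70 (Cxcl5, SE 0.76), and their counts were too low to place them more closely.

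The comparison of colitic genotypes asks how the same genes stand when both groups have had DSS, and it shares its libraries with the 2 DSS comparisons. The levels of all 6 members tested were lower in Tmem173iΔmye mice, at 12.4% (Ppbp) to 42.6% (Cxcl5) of the colitic Tmem173fl/fl mean. Ppbp, Cxcl1, Cxcr2 and Cxcl2 were called lower in edgeR, which is 4 of 6 members against 1.99% of all genes tested. Cxcl3 and Cxcl5 were not called. All 6 members had every colitic Tmem173iΔmye library below every colitic Tmem173fl/fl library, as 14.8% of all genes did.

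Cxcl1 averaged 66.5 ± 29.3 CPM (SD, n = 3) in the Tmem173fl/fl and 13.4 ± 2.05 CPM (SD, n = 3) in the Tmem173iΔmye libraries with DSS. The difference of Cxcl1 was -2.31 on the log2 scale (SE 0.33, edgeR adjusted p = 0.0167), and the highest Tmem173iΔmye library, at 15.8 CPM, was well below the lowest Tmem173fl/fl library, at 38.9 CPM. For Cxcl2 the means were 54.7 ± 2.47 and 12.8 ± 5.21 CPM, a difference of -2.11 (SE 0.30, edgeR adjusted p = 0.0167). Cxcl1 thus stood at 20.2% and Cxcl2 at 23.4% of the colitic control.

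For Cxcr2 the means were 14.6 ± 3.80 and 3.13 ± 1.63 CPM (SD, n = 3 each), a difference of -2.23 (SE 0.43, edgeR adjusted p = 0.0346). Ppbp fell furthest of the members, from 3.39 ± 1.62 to 0.421 ± 0.240 CPM, a difference of -2.99 (SE 0.54, edgeR adjusted p = 0.0303). Without colitic Tmem173fl/fl replicate 1 this rank did not hold, at -2.51 for Ppbp and -2.55 for Cxcl3. Ppbp rested on 20 counts in the 3 Tmem173iΔmye libraries together, and its ratio of summed counts was 0.127 (exact 95% interval 0.0756 to 0.201, counting error only).

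Cxcl3 had means of 23.0 ± 7.70 and 4.26 ± 2.92 CPM, a difference of -2.45 (SE 0.56) with an edgeR adjusted p of 0.0569. The size of this difference was within the range of the called members, and its Tmem173iΔmye libraries ran from 1.09 CPM in replicate 5 to 6.84 CPM in replicate 2. Cxcl5 had means of 89.7 ± 36.4 and 38.2 ± 9.73 CPM, a difference of -1.24 (SE 0.34) with an edgeR adjusted p of 0.0886. The gap between the groups was narrow for Cxcl5, with 47.1 CPM in the highest Tmem173iΔmye library and 48.7 CPM in the lowest Tmem173fl/fl library.

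**Figure D2:**
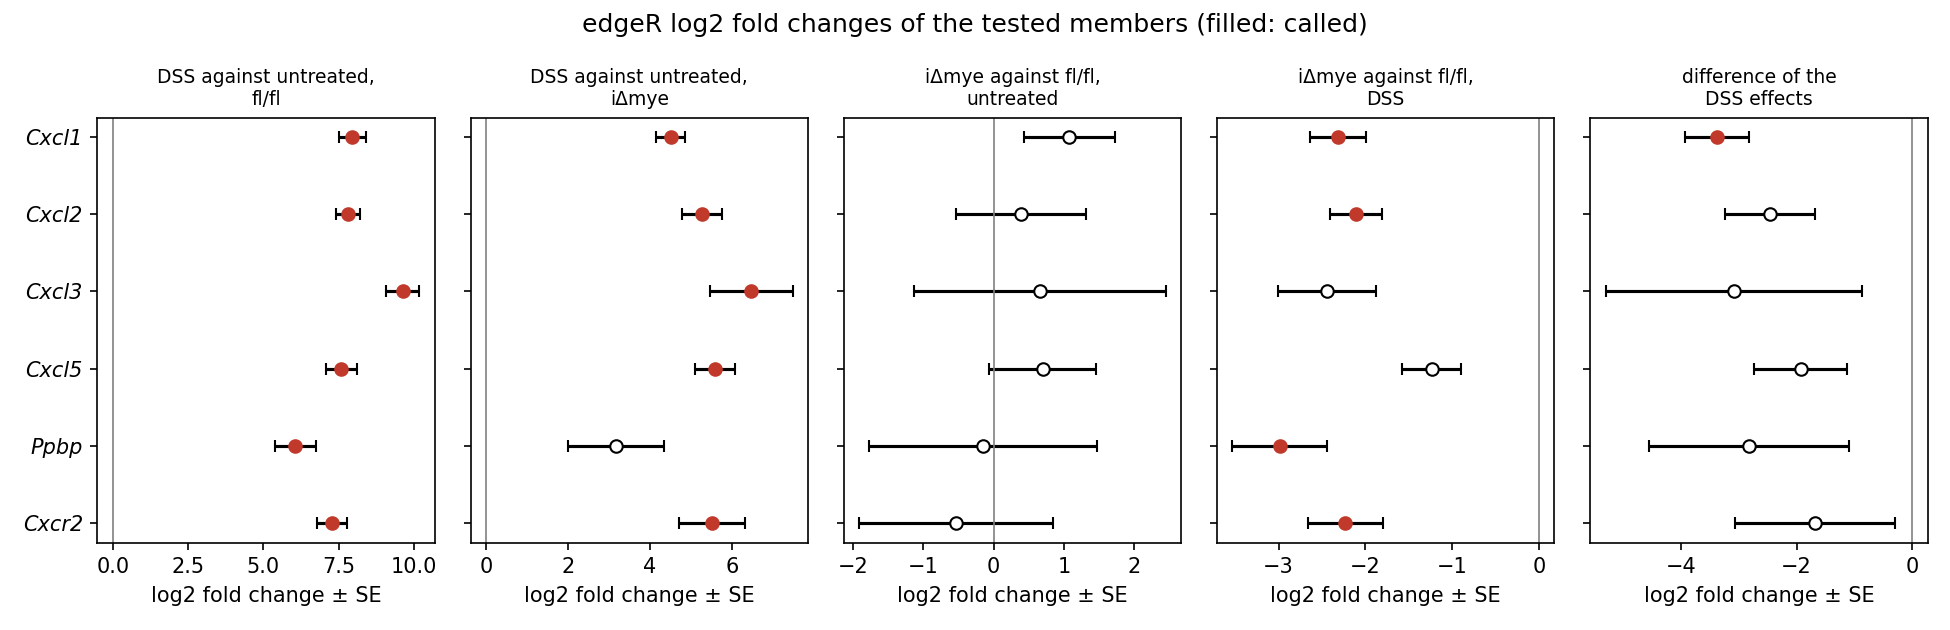
Log2 fold changes from edgeR (points) of the 6 members tested, with standard errors derived from its F statistic (bars). Each comparison has 1 panel with its own x axis, where filled red points are called and open points are not. All 6 points are right of 0 in both DSS comparisons and left of 0 between the colitic genotypes, where the points of Cxcl3 and Cxcl5 are open.

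These calls depended on single libraries. In the colitic Tmem173fl/fl libraries, replicate 1 had the highest Cxcl1, Cxcl2, Cxcl5, Ppbp and Cxcr2 of its group, and without it 0 members were called between the colitic genotypes in edgeR, where 0.0913% of all genes were called lower against 1.99% with it. The log2 fold changes kept their sign there, at -1.92 for Cxcl1 (edgeR adjusted p = 0.0684) and -2.06 for Cxcl2 (edgeR adjusted p = 0.0730). Without replicate 2 of that group Cxcl1 and Cxcl2 were called (0.585% of all genes lower), and without its replicate 3 Cxcl1 alone (0.373%). In the colitic Tmem173iΔmye group, leaving out replicate 1 changed no call of a member (4.6% of all genes lower), and leaving out replicate 2 kept the call of Cxcl2 alone (0.108%). When replicate 5 of this group, the female-pattern library that stood apart, was omitted, 4 members were called (1.39% of all genes lower), with Cxcl3 gained (edgeR adjusted p = 0.0323) and Ppbp lost (edgeR adjusted p = 0.0628). In DESeq2 all 6 members were called lower (3.96% of all genes), as they were with no filter (2.49%) and at an unadjusted p of at most 0.05 (6.0%). The replicate block also called all 6 (1.97%), but replicate 3 of Tmem173fl/fl and replicate 5 of Tmem173iΔmye have no partner there. That fit thus compares the genotypes in replicates 1 and 2 only. The fit of all 12 libraries called 5 (3.65%), without Cxcl5. Over all libraries left out in turn, the log2 fold changes ran from -2.58 to -1.92 for Cxcl1, from -2.40 to -1.83 for Cxcl2, from -2.95 to -1.99 for Cxcl3, from -1.52 to -0.97 for Cxcl5, from -3.50 to -2.51 for Ppbp and from -2.64 to -1.88 for Cxcr2.

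**Figure D3:**
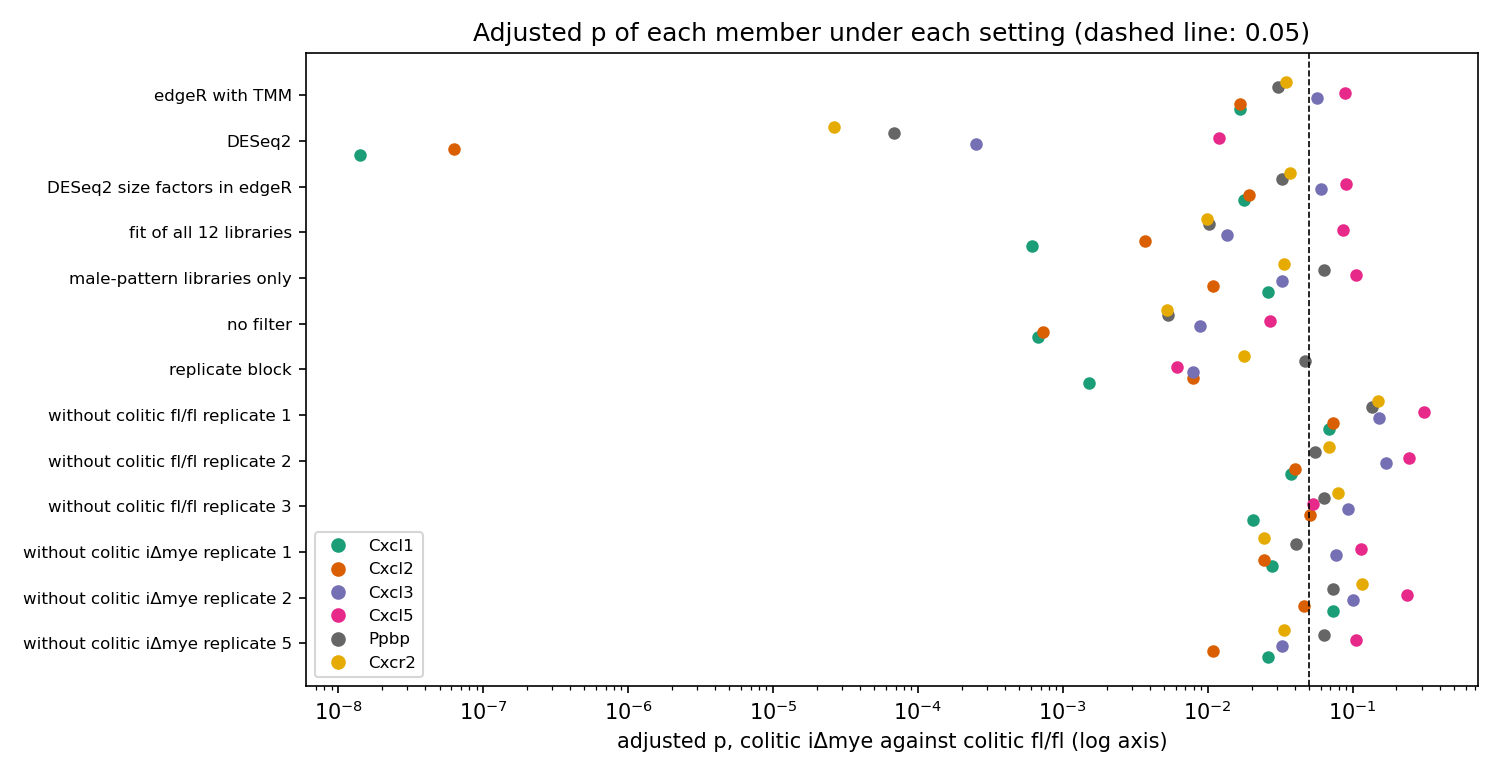
Adjusted p (log axis) of each of the 6 members tested in the comparison of colitic Tmem173iΔmye with colitic Tmem173fl/fl libraries, with 1 row per setting and a dashed line at 0.05. All points of DESeq2 and of the fit with no filter lie left of the line, and all points of the fit without colitic Tmem173fl/fl replicate 1 lie right of it.

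Whether the response to DSS itself differed between the genotypes was tested by the interaction over all 12 libraries, which uses the same libraries as the comparisons above. Cxcl1 was the only member called, with a response smaller by 3.38 on the log2 scale in Tmem173iΔmye mice (log2 -3.38, SE 0.56, edgeR adjusted p = 0.00838), against 1.61% of all genes called lower. Its levels (SD, n = 3 each) went from 0.273 ± 0.0608 to 66.5 ± 29.3 CPM in Tmem173fl/fl and from 0.582 ± 0.148 to 13.4 ± 2.05 CPM in Tmem173iΔmye mice. The call of Cxcl1 held without each of the 12 libraries in turn, replicate 5 of the colitic Tmem173iΔmye group included (-3.53, edgeR adjusted p = 0.00874), and was lost when all 3 female-pattern libraries were left out, at a log2 value of -3.64 (edgeR adjusted p = 0.0646). Among the male-pattern libraries 0.564% of all genes were called lower. The interactions of Cxcl2 (-2.46, SE 0.78, edgeR adjusted p = 0.112) and Cxcl5 (-1.93, SE 0.80, edgeR adjusted p = 0.226) were not called in edgeR, while DESeq2 (3.58% of all genes lower) and the fit with no filter (2.27%) added Cxcl2, and the unadjusted p (6.35%) added both. Those of Cxcl3 (-3.09, SE 2.22, edgeR adjusted p = 0.50), Ppbp (-2.82, SE 1.73, edgeR adjusted p = 0.417) and Cxcr2 (-1.68, SE 1.38, edgeR adjusted p = 0.560) were not called in edgeR, and their untreated groups held 1 to 4 counts each.

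The balance among the ligands was described per length, since CPM values do not compare genes. The deposited gene lengths of Cxcl1, Cxcl2 and Cxcl3 equal the whole gene span, introns included, and are 1.97, 1.86 and 3.44 times the length of the principal transcript in GENCODE M21, which lowers their FPKM, so shares are given on both lengths. On deposited lengths Cxcl5 made up 41.4%, 44.0% and 32.2% of the summed FPKM of the 5 ligands in the colitic Tmem173fl/fl libraries and 59.6%, 45.6% and 66.7% in the colitic Tmem173iΔmye libraries. The groups did not overlap, and the same was true on principal transcript lengths, where Cxcl5 made up 29.8%, 30.7% and 21.8% against 46.0%, 32.7% and 54.9%. Cxcl1 made up 33.9%, 27.0% and 25.5% against 18.0%, 20.3% and 22.2% on deposited lengths. On principal transcript lengths the shares of Cxcl1 overlapped (40.5%, 31.3% and 28.8% against 23.1%, 24.1% and 30.4%).

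The ligand with the highest share in the colitic Tmem173fl/fl group depended on the length, with a mean of 39.2% for Cxcl5 on deposited lengths and of 33.5% for Cxcl1 on principal transcript lengths. It also depended on the library, and in replicate 3 Cxcl2 was highest on both, at 32.9% and 35.1%. In the colitic Tmem173iΔmye group it was Cxcl5 on both, at means of 57.3% and 44.5%, and in each of its 3 libraries. The ratio of Cxcl5 counts to Cxcl1 counts needs no length to compare libraries, and it was 1.21, 1.62 and 1.25 in the colitic Tmem173fl/fl libraries and 3.30, 2.24 and 2.98 in the colitic Tmem173iΔmye libraries. This ratio was higher in each of the latter, and with 3 libraries a group it is given with no test. Cxcl2 counts per Cxcr2 count overlapped between the groups, at 3.03, 4.62 and 3.995 against 2.88, 5.28 and 5.26.

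**Figure D4:**
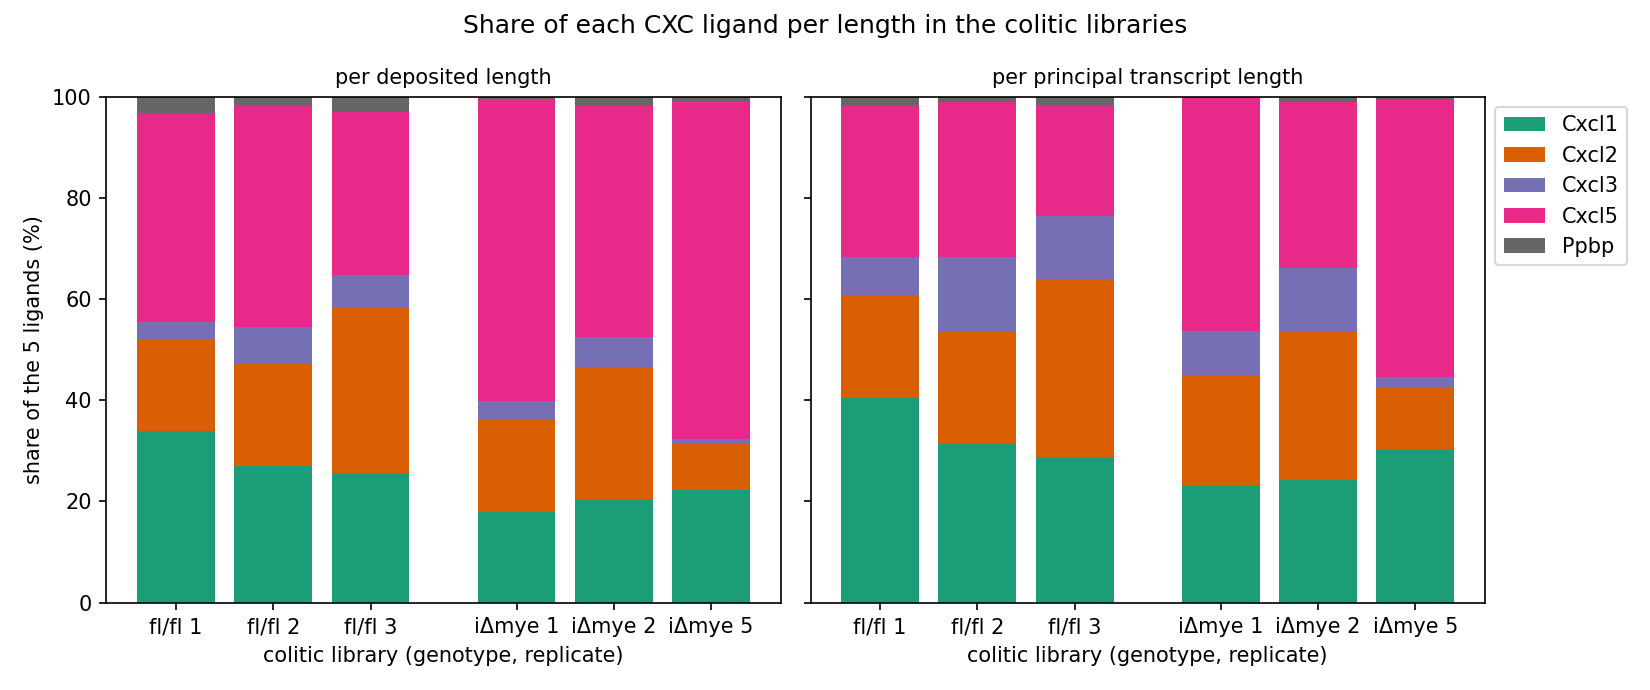
Share (%) of each of the 5 ligands in their summed level per length in the 6 colitic libraries, on the deposited gene lengths (left) and on the lengths of the principal transcripts (right). The Cxcl5 band is wider in each Tmem173iΔmye library than in any Tmem173fl/fl library in both panels, and the Ppbp band is at most 3.17%.

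Along the cluster on chromosome 5, Pf4 and Cxcl15, which lie between the members, were also followed. Pf4, which encodes platelet factor 4 and lies next to Ppbp, was already present without DSS, with 2.39 ± 1.36 CPM (SD, n = 3) in the Tmem173fl/fl and 3.87 ± 0.863 CPM (SD, n = 3) in the Tmem173iΔmye group. With DSS, Pf4 reached 40.5, 57.5 and 33.6 CPM in Tmem173fl/fl and 6.13, 6.91 and 5.58 CPM in Tmem173iΔmye libraries. Pf4 rose by 4.24 in Tmem173fl/fl mice (SE 0.39, edgeR adjusted p = 3.27e-05). Its difference with DSS in Tmem173iΔmye mice was 0.68 (SE 0.32, edgeR adjusted p = 0.341). Every colitic Tmem173iΔmye library was above every untreated one for Pf4, as for 12.1% of all genes. The interaction of Pf4 was called (-3.50, SE 0.51, edgeR adjusted p = 0.0059). Cxcl15 had 0 counts in all 6 colitic libraries and 0 to 3 counts in the untreated ones, too few to show a change.

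**Figure D5:**
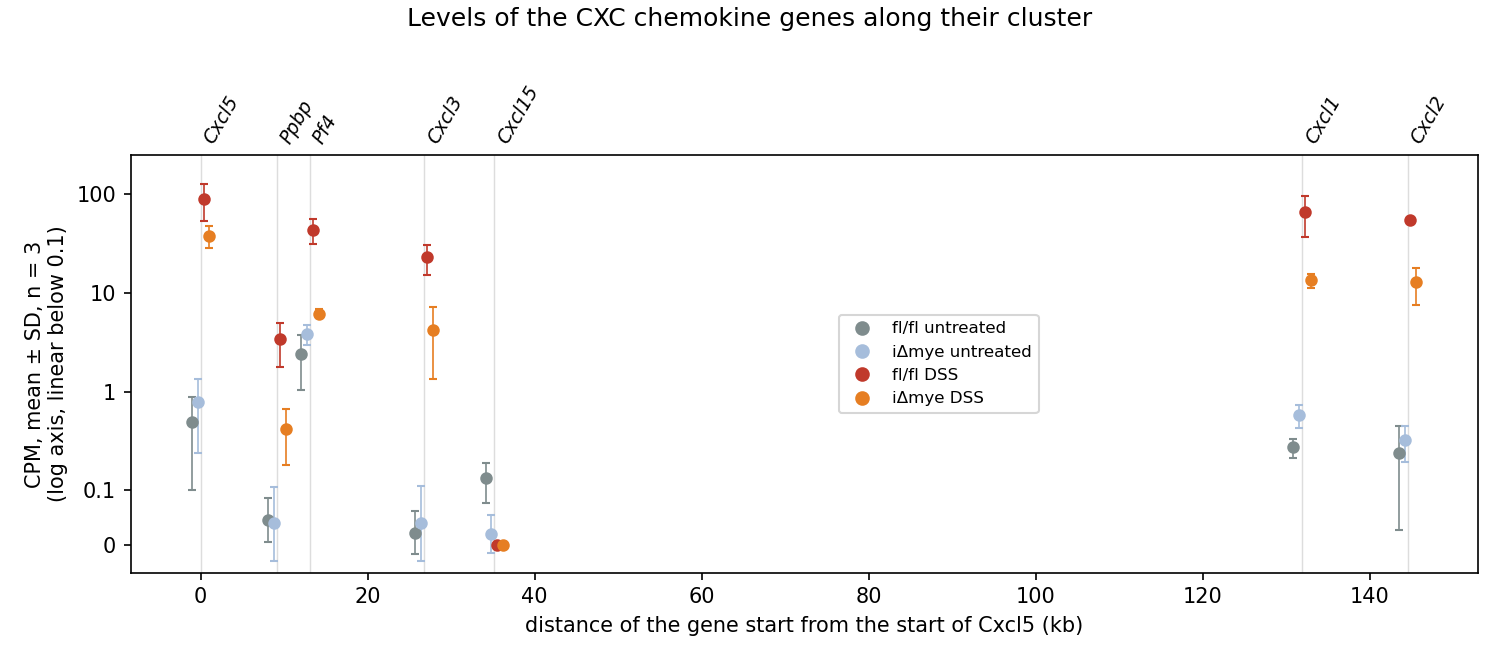
Mean CPM with SD (n = 3; log axis, linear below 0.1) of the chemokine genes of the chromosome 5 cluster in the 4 groups, placed by the distance of the gene start from the start of Cxcl5 in kb, with the points of a gene set slightly apart. The colitic Tmem173fl/fl mean is the highest of the 4 for each gene but Cxcl15, which is at 0 in both colitic groups.

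Other CXC chemokines, which act on other receptors, were mixed. Of 9 tested, 5 were called higher and 2 lower with DSS in Tmem173fl/fl mice, and their median log2 fold change was 1.99 against 0.03 over all genes. The calls of the largest size were the rises of Cxcl13 (4.50), a B cell attractant, Pf4 (4.24) and Cxcl14 (2.88), and the fall of Cxcl9 (-3.04), an interferon-induced ligand of CXCR3. In Tmem173iΔmye mice Cxcl13 (2.77) was called higher and Cxcl10 (-1.22), another ligand of CXCR3, lower. Between the colitic genotypes 0 were called higher, and Pf4 (-2.83) and Cxcl14 (-2.65) were called lower. Of 8 other chemokine receptors and scavengers, 4 were called higher with DSS in Tmem173fl/fl mice, namely Ackr1 (2.19), Cxcr4 (1.99), Ackr2 (1.82) and Ackr3 (1.75). Cxcr4 alone (1.58) was called in Tmem173iΔmye mice, and Ackr3 alone (-1.21) between the colitic genotypes.

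Of the cytokines known to induce these ligands, 11 of a list of 14 were in the table and tested. With DSS in Tmem173fl/fl mice 6 were called higher and 0 lower, with a median of 2.93. Il6, a product of stromal and myeloid cells, rose by 7.99, Il1a, the alarmin form of IL-1, by 3.64 and Il17c, an epithelial member of the IL-17 family, by 3.30. Csf3, the granulocyte growth factor, had 0 counts in all 6 untreated libraries and averaged 54.0 CPM with DSS in Tmem173fl/fl against 5.78 CPM in Tmem173iΔmye mice. In Tmem173iΔmye mice 4 were called higher, Csf3, Il6 (6.61), Il1a (3.16) and Tnf (1.62), with a median of 2.21, or 2.14 with the genes at 0 set to their bound. Between the colitic genotypes Csf3 (-3.24) and Il6 (-2.36) were called lower and 0 higher. Tnf, at 6.18 and 14.1 CPM in the same groups, was higher by 1.18 without being called (edgeR adjusted p = 0.0969), and it was named after its values were seen.

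A list of 10 receptors and adaptors held those of the cytokines and the Toll-like receptors Tlr2 and Tlr4, which sense microbial products. Of the 10, 5 were called higher with DSS in Tmem173fl/fl mice, among them Csf3r (3.16), Il1r1 (2.96) and Csf2rb (2.29), and Il17rc (-1.49) was called lower. Il1r1, the signalling receptor of IL-1, was the only one called in Tmem173iΔmye mice (1.49), between the colitic genotypes (-1.28) and in the interaction (-1.39). Of 10 NF-κB and mRNA decay regulators of the ligands, 5 were called higher in Tmem173fl/fl mice, among them Cebpb (3.45), Cebpd (3.15) and Zc3h12a (1.59), which encodes the RNase Regnase-1. The transcription factor genes Cebpb (-1.88) and Cebpd (-1.68) were called lower between the colitic genotypes, and in the interaction (-2.27 and -1.53). In Tmem173iΔmye mice Zc3h12a (1.57) and Cebpd (1.55) were called higher with DSS.

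Of 15 genes of signalling below CXCR2, 6 were called higher with DSS in Tmem173fl/fl mice (median of the 15, 0.94). They were led by Rgs2 (2.63), the Src family kinase Fgr (1.34), β-arrestin 2 (Arrb2, 1.32) and the Rac activator Prex1 (1.18). Rgs2, a regulator of G protein signalling that is not restricted to neutrophils, was the only one called in Tmem173iΔmye mice (1.25) and between the colitic genotypes (-1.08). Between the colitic genotypes the median of the 15 was -0.32, beside -2.23 for Cxcr2 itself and 0.02 over all genes.

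Markers of the cell types that make or respond to these chemokines were counted in the same fits. Of 19 neutrophil markers tested of a list of 20, 17 were called higher and 1 lower with DSS in Tmem173fl/fl mice (their median was 4.88). The largest called rises were Mmp8 (from 0.0643 to 41.5 CPM), S100a9 (8.40), Ngp (7.58) and S100a8 (7.56), genes of neutrophil granules and cytosol. In Tmem173iΔmye mice 8 were called higher, among them Mmp8 (from 0 to 3.77 CPM), S100a8 (4.96), Trem1 (4.75) and S100a9 (4.52). Between the colitic genotypes 10 were called lower and 0 higher, led by Ngp (-4.96), Stfa2l1 (-4.04), Camp (-3.71) and Mmp8 (-3.47), with a median of -2.68, or -2.54 with Elane at its bound. With Tmem173fl/fl replicate 1, 2 or 3 left out that count was 0, 1 and 1, and with Tmem173iΔmye replicate 2 left out it was 2, in fits that called 0.0913%, 0.585%, 0.373% and 0.108% of all genes lower. Ly6g, a surface marker of mouse neutrophils named after its values were seen, was not called there (0.27). The summed level of the list ran from 689 to 1100 CPM in colitic Tmem173fl/fl and from 385 to 532 CPM in colitic Tmem173iΔmye libraries. Ly6g and Cd177 made up 144 to 302 CPM of these sums in the former and 229 to 470 CPM in the latter, and the other 18 genes 545 to 798 CPM against 62.6 to 167 CPM, a division made after seeing the data, as was that by Kit among the mast cell markers. Cd177, at 201 CPM on average without DSS, was the marker called lower with DSS in Tmem173fl/fl mice (-1.47). Elane and Mpo, which mark immature neutrophils, were at 0 in untreated Tmem173fl/fl mice, Mmp8 in untreated and Elane in colitic Tmem173iΔmye mice. The part of neutrophil number in the levels of the members was not tested.

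Of 9 platelet markers tested of 11, 7 were called higher with DSS in Tmem173fl/fl mice (median 2.90, or 2.72 with Treml1 at its bound), 1 in Tmem173iΔmye mice, and 4 lower between the colitic genotypes. Pf4, which was counted among the other CXC chemokines too, was in this list and among the 7 and the 4. Itga2b, the platelet integrin, fell by 1.86 between the colitic genotypes and Gp9 by 2.93. Gp1bb was at 0 in all 4 groups, and the summed level of the list ran from 175 to 239 CPM in colitic Tmem173fl/fl and from 46.4 to 75.6 CPM in colitic Tmem173iΔmye libraries. Itgb3, an integrin subunit that is not restricted to platelets, made up 118 to 160 CPM and 32.8 to 59.3 CPM of these, and the other 10 genes 57.8 to 78.6 CPM and 11.7 to 16.3 CPM. Without Pf4 as well, the remaining 9 genes summed to 21.2 to 29.3 CPM and 6.07 to 10.2 CPM, and both divisions were made after seeing the data. All 5 erythroid markers were called higher with DSS in Tmem173fl/fl mice and lower between the colitic genotypes, and 0 were called in Tmem173iΔmye mice. In the untreated Tmem173iΔmye group replicate 2 stood apart, with 25.8 CPM of Hba-a1 and 27.7 CPM of Hbb-bs against 1.88 and 2.49 CPM in replicate 1 and 3.97 and 8.60 CPM in replicate 3. Without it 0 were called as well, but that fit called only 0.166% of all genes higher, so it cannot show what replicate 2 did to these calls. Their summed level was 152 to 323 CPM in colitic Tmem173fl/fl and 23.8 to 29.0 CPM in colitic Tmem173iΔmye libraries, with 0 of the 5 at 0. The part of blood in the levels of Ppbp and Pf4 was not tested.

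Of 8 fibroblast markers, 7 were called higher with DSS in Tmem173fl/fl mice, 2 in Tmem173iΔmye mice, and 5 lower between the colitic genotypes, where Dcn stood at -1.78, Col3a1 at -1.73 and Col1a1 at -1.69. Of 8 endothelial markers, 8 were called higher in Tmem173fl/fl mice, 2 in Tmem173iΔmye mice, and 3 lower between the colitic genotypes. Their summed levels in the colitic groups ran from 8036 to 10235 against 2334 to 3425 CPM for fibroblast and from 494 to 625 against 168 to 335 CPM for endothelial markers, with 0 markers at 0. Selp, the adhesion molecule P-selectin that captures neutrophils, averaged 57.5 CPM against 14.3 CPM in the colitic genotypes, a difference of -2.02. The part of the stroma in the levels of the ligands was not tested.

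Of 11 colon epithelium markers, which check the labelled tissue, 0 were at 0 in any group, and 6 were called lower and 1 (Car1, 1.63) higher with DSS in Tmem173fl/fl mice. In the interaction Cdh1, which encodes E-cadherin, was called higher (1.20). Epithelial markers were not called in Tmem173iΔmye mice or between the colitic genotypes in edgeR, where the median was 0.76 and the summed level ran from 13224 to 21187 CPM in Tmem173fl/fl and from 20328 to 28513 CPM in Tmem173iΔmye libraries. Of 12 monocyte and macrophage markers, 9 were called higher with DSS in Tmem173fl/fl and 2 in Tmem173iΔmye mice, and Mrc1, the mannose receptor, was the only one called between the colitic genotypes (-1.74). Their summed level ran from 1335 to 1824 CPM in colitic Tmem173fl/fl and from 813 to 1181 CPM in colitic Tmem173iΔmye libraries, with 0 of 12 at 0. Of 7 mast cell and basophil markers tested of 8, 3 were called higher with DSS in Tmem173fl/fl mice and 0 in the other comparisons in edgeR. Their summed level ran from 113 to 124 CPM against 52.1 to 102 CPM in the colitic groups, of which Kit alone made up 102 to 119 and 45.0 to 96.4 CPM and the other 7 genes 5.58 to 10.5 and 5.10 to 7.84 CPM, with Mcpt8 at 0 in colitic Tmem173fl/fl mice. In the untreated comparison of genotypes 0 genes of every list were called.

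The counts of the lists were also taken without replicate 5 of the colitic Tmem173iΔmye group, a choice made after seeing the data. Over all genes, 3.95% in place of 1.48% were then called higher with DSS in Tmem173iΔmye mice and 1.39% in place of 1.99% lower between the colitic genotypes. With DSS in Tmem173iΔmye mice, the calls higher went from 8 to 13 of 19 neutrophil, from 2 to 6 of 8 endothelial, from 2 to 5 of 8 fibroblast and from 2 to 5 of 12 monocyte and macrophage markers, and Cd177 was called lower (edgeR adjusted p = 0.0370). The calls higher went from 4 to 6 inducing cytokines, from 1 to 4 upstream receptors and adaptors, from 1 to 3 other CXC chemokines, from 1 to 3 genes of CXCR2 signalling, from 1 to 2 other chemokine receptors, from 2 to 3 NF-κB and decay regulators and from 0 to 1 epithelial markers. Platelet (1), erythroid (0) and mast cell (0) markers had the same number of calls higher. Between the colitic genotypes, the calls lower went from 10 to 11 neutrophil, from 4 to 3 platelet, from 5 to 4 fibroblast and from 3 to 2 endothelial markers and from 2 to 1 inducing cytokines, and the number was the same for the other 9 lists. Among the genes named above, the calls of Il6 (-2.26, edgeR adjusted p = 0.0811), Gp9 (-2.74, edgeR adjusted p = 0.0822) and Col1a1 (-1.59, edgeR adjusted p = 0.0728) were lost there. In the interaction the calls of Cebpd (-1.56, edgeR adjusted p = 0.0527) and Col1a1 (-1.64, edgeR adjusted p = 0.0570) were lost and that of Mmp9 (-2.75, edgeR adjusted p = 0.00891) was gained, and no other call of a listed gene changed.

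Other libraries ended more of the calls of the lists, and each was left out in turn, also a choice made after seeing the data. The calls over all genes fell in most of these fits too. Between the colitic genotypes 0.0913% of all genes were called lower without replicate 1 of the Tmem173fl/fl group, against 1.99% with it. The calls lower there were 3 of the 5 erythroid markers, 2 other CXC chemokines and 1 platelet marker, and 0 in each other list. Without replicate 2 of the Tmem173iΔmye group, where 0.108% of all genes were called lower, they were 2 erythroid and 2 neutrophil markers. They also held 1 other CXC chemokine and 1 platelet marker, and 0 in each other list. Fibroblast markers called lower ran from 0 to 6 of 8 and endothelial markers from 0 to 7 of 8 over the 6 libraries, in fits that called 0.0913% to 4.6% of all genes lower. With DSS in Tmem173iΔmye mice, leaving out any 1 of the 3 untreated libraries left 1 neutrophil marker and 1 inducing cytokine called higher. At most 1 endothelial marker and 1 NF-κB or decay regulator were called higher there, and 0 in each other list. Of all genes 0.212%, 0.166% and 0.178% were called higher without untreated replicates 1, 2 and 3, against 1.48% with them. With DSS in Tmem173fl/fl mice the calls higher without 1 library were 16 to 17 neutrophil, 7 fibroblast, 8 endothelial, 7 platelet and 5 erythroid markers. They were 3 to 7 of 15 genes of CXCR2 signalling (3 without colitic replicate 2), 4 to 7 of 11 inducing cytokines and 1 to 3 of 7 mast cell markers. Without colitic or untreated replicate 2, 1 mast cell marker was called higher and 1 lower. Of all 24102 genes, 3061 to 3610 were called higher in these fits.

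For each member the 3 other genes with the most similar profile over the 12 libraries were named by the root mean square (RMS) difference of centred log2(CPM + 0.5) values, among genes with a mean FPKM of at least 1. They were Adamts1 (0.50), Igfbp5 (0.51) and Ereg (0.59) for Cxcl1, Serpina3n (0.47), Adamts1 (0.52) and Serpina3m (0.53) for Cxcl2, and Pappa (0.39), Inhbb (0.46) and Trem1 (0.46) for Cxcl3. For Cxcl5 they were Mmp3 (0.68), Serpina3n (0.87) and Prss22 (0.89), for Ppbp Stfa2l1 (0.32), Plk2 (0.32) and Fgf7 (0.32), and for Cxcr2 Osm (0.24), Lgi2 (0.33) and Trem1 (0.33). Trem1 is a receptor of neutrophils and monocytes, Osm a cytokine of myeloid cells, and Mmp3 and Igfbp5 are known from fibroblasts. Among the members the closest pairs were Cxcl1 with Cxcl2 (0.51) and Cxcl3 with Cxcr2 (0.52). The added 0.5 compresses the profile of a gene of few CPM, as Ppbp was, and as Cxcl3 and Cxcr2 were without DSS. Distances to these genes thus also reflect their level and do not compare between members. All libraries are shared by these profiles, so likeness over them is a description.

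Of the 29 genes with GGGAATTTCC in the promoter, 15 tested genes were not members. With DSS in Tmem173fl/fl mice 3 of these were called higher, where 14.9% of all genes were, namely Ccr3 (3.42), Il16 (1.26) and Nfkbia (1.20), which encodes the NF-κB inhibitor IκBα, and Lyzl4 (-1.18) was called lower, as 7.61% of all genes were. Their median log2 fold change was -0.03. In Tmem173iΔmye mice and between the colitic genotypes 0 of the 15 were called in edgeR.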

How the data were processed

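Total RNA of colon tissue was extracted with TRIzol, and polyA libraries were made with a NEBNext Ultra kit. According to the submitters' processing notes, CASAVA 1.8, fastp, HISAT2 2.0.5, featureCounts 1.5.0-p3 and DESeq2 1.20.0 were used with GRCm38; whether counting used strand is not given in the sources used here. The authors deposited raw counts per gene for each library and FPKM values, which they normalised to gene length and library size. Deposited columns of log2 fold changes and p-values from the authors' own comparisons were not used.

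Genes that reached 0.1 FPKM in 3 or more of the 12 libraries were tested on counts by edgeR 4.0.16 in R 4.3.3 (quasi-likelihood test, TMM, Benjamini-Hochberg over 24102 genes), and a call needed an adjusted p below 0.05 with a log2 change of 1 or more in size. Each comparison of 2 groups used only their libraries, and the interaction used all 12. An unadjusted p of at most 0.05 was run as an alternative. CPM values used the TMM factors. Ratios of summed counts carry exact Clopper-Pearson 95% intervals (scipy 1.17.1, Python 3.11.15) for counting error only. Alternatives were DESeq2 1.42.0, its size factors, no filter, a fit of all 12 libraries, a replicate block, male-pattern libraries only and leaving out each library. Scripts were tested on simulated data.

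Named genes were all members, Tmem173 and Lyz2, for each list up to 4 called genes of the largest size, and 3 genes of the most similar profile for each member. The members and the lists (other CXC chemokines, other chemokine receptors, inducing cytokines and their receptors, NF-κB and decay regulators, CXCR2 signalling, and markers of neutrophils, platelets, monocytes and macrophages, mast cells, epithelium, fibroblasts, endothelium and erythroid cells) were chosen with earlier results of these data known. Promoters came from RefSeq (GRCm38.p6), with an entry for 6 of 7 members, and gene models from GENCODE M21.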

Additional observations from a re-analysis of the deposited data

Results flagged for a closer look

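The response of Cxcl1 to DSS differed between the genotypes by a test of the difference itself. The interaction of genotype and DSS was -3.38 on the log2 scale (SE 0.56, edgeR adjusted p = 0.00838 with Benjamini-Hochberg adjustment), with log2 fold changes of 7.96 in Tmem173fl/fl and 4.51 in Tmem173iΔmye mice. All 3 colitic Tmem173iΔmye libraries were below all 3 colitic Tmem173fl/fl libraries, and all 3 untreated Tmem173iΔmye libraries were above all 3 untreated Tmem173fl/fl libraries, on 3 to 12 counts each. Without the 3 female-pattern libraries the interaction was -3.64 and was not called (edgeR adjusted p = 0.0646).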

How the results depend on the processing

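All 6 members tested kept their calls with DSS in Tmem173fl/fl mice under every alternative run. Without 1 library, members called ran from 6 to 6 and from 3 to 5 in the DSS comparisons of Tmem173fl/fl and Tmem173iΔmye mice, from 0 to 0 and from 0 to 4 between untreated and colitic genotypes, and from 1 to 1 in the interaction. Genes called then ran from 4761 to 5568, from 51 to 1469, from 0 to 6, from 27 to 1593 and from 267 to 1728, in that order.

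In place of 501 genes with DSS in Tmem173iΔmye mice, DESeq2 called 1137, the fit of all 12 libraries 981, the fit with no filter 1013 and the unadjusted p 2193. In place of 0 between untreated genotypes, they were 3 (DESeq2), 68 (no filter) and 328 (unadjusted p). In place of 678 between colitic genotypes, they were 1619 (DESeq2), 1492 (12 libraries), 1257 (no filter) and 2505 (unadjusted p), with 6, 5, 6 and 6 members. In place of 614 genes and 1 member in the interaction, they were 1365 and 2 (DESeq2), 1228 and 2 (no filter), 2747 and 3 (unadjusted p) and 201 and 0 (male-pattern libraries only, with fewer samples). Among male-pattern libraries the untreated genotype differences of Ppbp (0.63) and Cxcr2 (0.30) turned positive, and without 1 library those of Cxcl2 ran from -0.15 to 0.94, of Cxcl3 from -1.93 to 2.61 and of Ppbp from -2.72 to 0.35. Other causes were not tested.

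Replicate numbers did not pair the samples, with a same-number correlation over 0.1 in 4 of 15 pairs. With the replicate block 1369 genes were called with DSS in Tmem173iΔmye mice, 94 between untreated and 849 between colitic genotypes (6 members), and 590 in the interaction. Of all log2 fold changes of members under alternatives, 375 kept their direction and side of the threshold, 16 gained and 21 lost the call, and 8 reversed. At 0 to 22 counts per library, untreated levels limit every fold change against them, and Cxcr1 cannot be compared.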

Other observations

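The summed FPKM of the 5 ligands was 155, 126 and 82.4 in the colitic Tmem173fl/fl libraries and 35.7, 32.3 and 37.0 in the colitic Tmem173iΔmye libraries, so the total was more even in the second group while its makeup varied. Within that group Cxcl5 had 8.19, 4.06 and 43.1 counts per Cxcl3 count, with the highest ratio in replicate 5, against 6.19, 3.22 and 2.70 in the colitic Tmem173fl/fl libraries, and the groups overlapped. Cxcl1 had 0.904, 0.702 and 2.15 counts per Cxcl2 count in the colitic Tmem173iΔmye libraries and 1.71, 1.22 and 0.704 in the colitic Tmem173fl/fl libraries. Ppbp had 0.0349, 0.0991 and 0.0652 counts per Pf4 count in the former and 0.130, 0.0395 and 0.0791 in the latter, so the ratio of the neighbouring platelet genes overlapped between the genotypes.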
